A study of Mus musculus with 6 samples.

Results

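Muscle myosin heavy chains, the motor proteins of the thick filament, were examined in muscle stem cells (MuSCs), the resident stem cells of skeletal muscle, after culture with endothelin-3 (ET-3) or neurotensin (NT). The members were the genes with the symbols Myh1, Myh2, Myh3, Myh4, Myh6, Myh7, Myh7b and Myh8, chosen by name. No cut-off on measured values was used, but earlier results of these data were known. All 8 had a row among the 18943 genes of the deposited table, and all 8 were among the 13921 genes tested, whose values averaged 5 or more. RNA was sequenced from FACS-purified MuSCs from WT C57BL/6 mice of 8 weeks, cultured for 5 days. The groups comprised 2 libraries with DMSO, the solvent control, 2 with ET-3 and 2 with NT, and the labels give 100 nM for both ligands, whereas the methods of the paper give higher doses. ET-3 and NT are peptides that act through G protein-coupled receptors, and the comparison asked how MuSCs treated with either ligand differ from control cells. The design text of the series names 3 replicates per group, of which 2 were analysed here.

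Vertebrate muscle uses a different heavy chain gene at each stage of development and in each fibre type. Myh3 encodes the embryonic and Myh8 the perinatal chain, and both return when new fibres form after injury. Myh2, Myh1 and Myh4 encode the IIa, IIx and IIb chains of adult fast fibres. Myh7 encodes the chain of slow fibres and of the heart, Myh6 the alpha chain of the heart, and Myh7b an ancient relative of the slow chain that is expressed at low levels. MuSCs themselves do not build sarcomeres, and in culture sarcomeric myosins appear as the cells differentiate and fuse into myotubes.

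On GRCm38, the developmental and fast genes lie side by side on the plus strand of chromosome 11. Myh3 (ENSMUSG00000020908) spans chr11:67078300-67102291, Myh2 (ENSMUSG00000033196) chr11:67171027-67197517, Myh1 (ENSMUSG00000056328) chr11:67200052-67224575, Myh4 (ENSMUSG00000057003) chr11:67238029-67260446 and Myh8 (ENSMUSG00000055775) chr11:67277124-67308634. The cardiac and slow genes lie next to each other on the minus strand of chromosome 14, with Myh6 (ENSMUSG00000040752) at chr14:54941921-54966927 and Myh7 (ENSMUSG00000053093) at chr14:54970684-54994626. Myh7b (ENSMUSG00000074652) stands alone on the plus strand of chromosome 2, at chr2:155611212-155634307.

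The upstream sequences of Myh2, Myh1, Myh4 and Myh8 on chromosome 11 were compared. All members moved the same way in the data below, including Myh3, which was not in this comparison, and those on other chromosomes. Whether shared letters bear on these changes was not tested. The 250 bases before the RefSeq start site of Myh2, Myh1, Myh4 and Myh8 are shown 5′ to 3′ on the plus strand of GRCm38.p6. Capitals mark 2 runs of letters that these windows share.
Myh2, chr11:67170777-67171026: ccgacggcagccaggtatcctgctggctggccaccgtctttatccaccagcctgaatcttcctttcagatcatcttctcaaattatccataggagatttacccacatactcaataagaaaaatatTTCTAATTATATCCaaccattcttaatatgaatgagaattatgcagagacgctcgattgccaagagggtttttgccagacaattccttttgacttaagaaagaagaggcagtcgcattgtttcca
Myh1, chr11:67199852-67200101: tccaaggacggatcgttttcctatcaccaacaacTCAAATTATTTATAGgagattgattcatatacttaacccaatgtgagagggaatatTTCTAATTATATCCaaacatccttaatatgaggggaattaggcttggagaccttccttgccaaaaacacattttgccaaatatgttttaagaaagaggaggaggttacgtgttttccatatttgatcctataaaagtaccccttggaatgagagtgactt
Myh4, chr11:67237562-67237811: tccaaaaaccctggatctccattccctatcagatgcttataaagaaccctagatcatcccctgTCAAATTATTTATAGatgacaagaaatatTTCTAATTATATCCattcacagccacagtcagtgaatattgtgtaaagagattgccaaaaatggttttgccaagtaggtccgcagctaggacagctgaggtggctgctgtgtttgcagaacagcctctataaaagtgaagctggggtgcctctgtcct
Myh8, chr11:67276874-67277123: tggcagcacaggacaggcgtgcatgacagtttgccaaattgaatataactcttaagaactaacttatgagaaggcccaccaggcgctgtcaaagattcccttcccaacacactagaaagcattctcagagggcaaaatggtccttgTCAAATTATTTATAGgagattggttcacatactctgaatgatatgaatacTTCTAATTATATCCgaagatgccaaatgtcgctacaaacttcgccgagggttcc
A run of 14 letters, the last in capitals in each window, was common to all 4 and began at position -125 from the start site in Myh2, -160 in Myh1, -158 in Myh4 and -54 in Myh8. It occurred in 4 of the 32851 windows of the same length (0.0122%), those of the 4 genes shown. A run of 15 letters, the first in capitals in Myh1, Myh4 and Myh8, was common to these 3 genes and occurred in 3 windows (0.0091%). Each run was picked as the longest that its windows share, so its rarity elsewhere largely follows from that choice and is no test of a role.

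Motifs were searched on both strands of the same kind of window, which RefSeq gave for all 8 members. The consensus of MEF2, a family of muscle transcription factors, matched inside the run of 15 letters in Myh1, Myh4 and Myh8 and overlapped a TATAAA match there, and 2.92% of all windows held a MEF2 match. A TATAAA match, the TATA box, began at -29 in Myh3, -32 in Myh1 and -31 in Myh4, against 12.4% of all windows with one anywhere. The E-box CANNTG, the letters recognised by MyoD and its relatives, occurred in 66.2% of all windows and matched upstream of Myh3 (at -191), Myh4, Myh6, Myh7, Myh7b and Myh8, but not of Myh1 or Myh2. The other motifs searched were the CArG box (1.47% of windows), the M-CAT letters CATTCC (12.6%) and the MEF3 core TCAGGTT (3.49%). The CArG box matched upstream of Myh4 alone among the members, M-CAT upstream of Myh1, Myh4, Myh6 and Myh7, and MEF3 upstream of none, which says only that these letters are not in these windows. A match is a description of letters and not of a bound site.

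Introns of Myh6, Myh7 and Myh7b carry miRNAs of striated muscle, shown here because their seeds are related across the 3 hosts. The RefSeq mature sequences (GRCm38.p6) follow 5′ to 3′, with the seed, bases 2 to 8, in capitals.
miR-208a-3p, within Myh6, chr14:54949072-54949093, minus strand: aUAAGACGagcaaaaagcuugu
miR-208b-3p, within Myh7, chr14:54975710-54975731, minus strand: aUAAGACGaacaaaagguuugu
miR-499-5p, within Myh7b, chr2:155622893-155622913, plus strand: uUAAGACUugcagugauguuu
The seeds of miR-208a-3p and miR-208b-3p were the same. Levels of these miRNAs were not analysed here.

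The deposited numbers are read counts that had been scaled by 1 factor for each library and then rounded, and they are called values here. They summed to between 4214458 and 4600575 per library, which corresponded to 3629306 to 5396581 reads on genes after division by the estimated factors. Libraries of a pair differed by a mean chi-square per gene of 1.44 (DMSO), 0.885 (ET-3) and 0.927 (NT), where 1 is the sampling noise of reads. Nothing in the labels says that the libraries came from separate cultures, and the p-values then measure only the spread between these libraries. Genes were tested with limma on log2(value + 1) over the 6 libraries, and a gene was called at an adjusted p of at most 0.05 and a change of at least 2-fold.

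The 8 markers of MuSCs and myoblasts summed to 8990 and 9963 with DMSO and to 7219 to 8692 with a ligand, so that both controls lay above all 4 ligand libraries. Of the 7 tested, Cdh15, the M-cadherin of myogenic cells, was called lower with each ligand, with 1547 and 1746 against 436 to 496 (log2 fold changes -1.80 and -1.82). Pax7, which marks MuSCs, had 857 and 1070 against 1599 to 1754, a difference under 2-fold in the fit (log2 fold changes 0.86 and 0.76). Calcr, a marker of quiescent MuSCs, was at most 3 throughout. The 8 markers of differentiated muscle cells summed to 27599 and 30238 with DMSO and to 1800 to 2288 with a ligand. All 8 were called lower with each ligand, against 14.9% of tested genes with ET-3 and 13.2% with NT.

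Markers of other cell types were also read. The background was 14.9% of tested genes called lower with ET-3 and 13.2% with NT, and 6.62% and 7.3% higher. Of the smooth muscle and pericyte list, 4 of the 5 tested genes were called lower with each ligand, and the 7 genes summed to 4196 and 4754 with DMSO against 1028 to 1196 with a ligand. Abcc9 had 851 and 835 with DMSO and 0 to 4 with a ligand, Rgs5 117 and 150 against 2 to 5, Notch3 1397 and 1773 against 284 to 409, and Acta2 1216 and 1382 against 251 to 281. Cspg4 was not called, and Myh11 and Kcnj8, which were not tested, were at or below 4 in every library. The endothelial list (5 genes with a row) summed to 12 and 26 with DMSO and to 85 to 109 with a ligand. Of its 3 tested genes, 2 were called higher with ET-3 and 3 with NT. Tek, the angiopoietin receptor, had 2 and 1 against 42 to 70, Kdr, a receptor of vascular endothelial growth factor, 16 and 6 against 23 to 26, and Pecam1, called with NT alone, 6 and 3 against 7 to 15. Cdh5 and Esam, which were not tested, were at most 5 in every library. The Schwann cell list (3 genes with a row) summed to 137 and 153 against 617 to 682, where Ngfr, called higher with each ligand, held 591 to 644 of the ligand sums. The fibroadipogenic list (5 genes with a row) summed to 1624 and 1788 against 992 to 1151. Most of each sum was Col3a1, which was not called (1420 and 1577 against 922 to 1061). Of its 4 tested genes, Col1a1 alone was called, lower with each ligand (148 and 146 against 2 to 8). Ly6a (27 and 18 against 37 to 52) and Pdgfra (20 and 30 against 26 to 44) had positive log2 fold changes and were not called. Dcn, which was not tested, had 9 and 17 against 0 to 2. The macrophage list (3 genes with a row) summed to 21 to 45 in all libraries. The part of other cells in the differences below was not tested.

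All 8 myosin heavy chain genes were expressed in the DMSO libraries and were nearly absent from the 4 ligand libraries. Myh3, the embryonic chain, had values of 5115 and 5798 in the DMSO libraries, 14 and 17 under ET-3 and 32 and 15 under NT. Myh8, the perinatal chain, had 2268 and 2450 in the DMSO libraries, 0 and 0 under ET-3 and 3 and 0 under NT. The DMSO libraries thus held both developmental chains at 2268 or more, and the ligand libraries at 32 or less.

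Among the adult fast chains, Myh1 (IIx) had values of 2998 and 3406 in the DMSO libraries, 5 and 3 under ET-3 and 6 and 6 under NT. Myh4 (IIb) had 203 and 209 with DMSO and was listed at 0 in all 4 ligand libraries. Myh2 (IIa) had 89 and 104 in the DMSO libraries, 0 and 0 under ET-3 and 1 and 0 under NT. All 3 fast genes were therefore at 89 or more in both control libraries and at 6 or below in the rest.

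The slow and cardiac chains followed. Myh7 had values of 688 and 708 in the DMSO libraries, 0 and 0 under ET-3 and 1 and 0 under NT. Myh6 had 93 and 120 in the DMSO libraries, 1 and 0 under ET-3 and 0 and 1 under NT. Myh7b had 170 and 191 in the DMSO libraries, 1 and 0 under ET-3 and 2 and 0 under NT. In all 8 genes the lowest DMSO library lay above the highest ligand library. The share of all tested genes with such a separation was not computed here. Among the ligand libraries the first NT library had the highest values of Myh3 and Myh8.

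**Figure D1:**
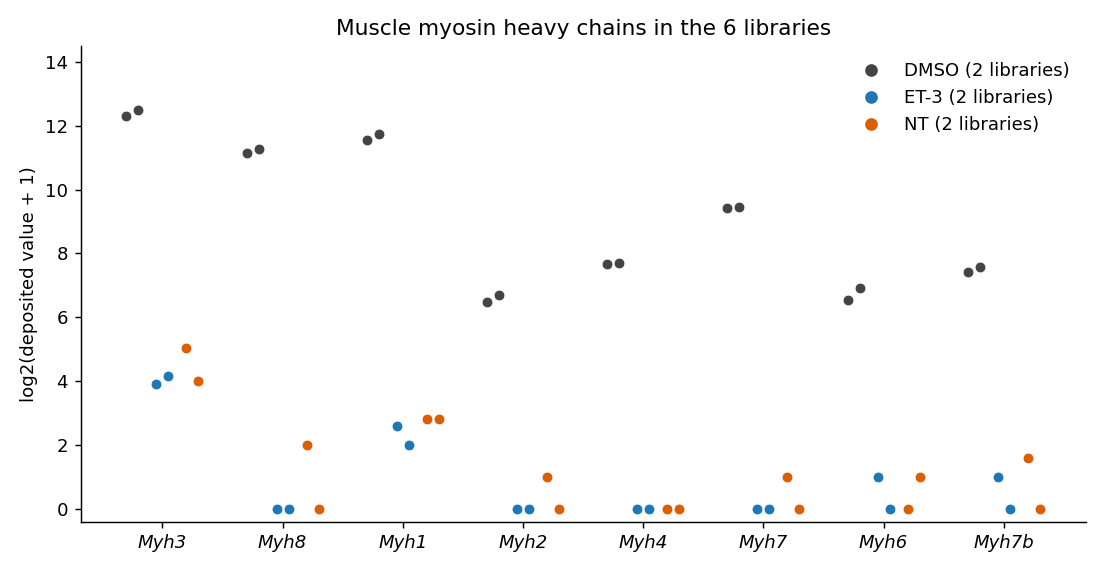
Values of the 8 genes in the 6 libraries on a log2(value + 1) axis, 1 point per library, coloured by group. Both DMSO points of each gene lie far above all 4 ligand points, and Myh3 and Myh1 alone keep a value above 0 in every ligand library.

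With ET-3, 8 of 8 members were called lower, against 14.9% of all tested genes. With NT, 8 of 8 were called lower, against 13.2%, and 0 members were called higher, against 6.62% of tested genes with ET-3 and 7.3% with NT. The filter took the mean over all 6 libraries. Myh8, Myh2, Myh4, Myh7, Myh6 and Myh7b averaged 1.5 or less in each ligand group and passed it through their DMSO values. For them a call of higher was hardly possible, so these counts describe the members and are no test of direction. The median log2 fold change of the members was -8.03 with ET-3 and -7.79 with NT, while the median over all tested genes was -0.01 in both comparisons. With members at 0 throughout a group set to a floor of 3 reads over that group, their medians were -7.69 and -7.64. Both comparisons share the DMSO libraries and are not independent of each other. In bulk RNA, fewer differentiated cells and less myosin RNA per cell cannot be told apart.

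Myh3 fell by 8.37 on the log2 scale with ET-3 (SE 0.27, limma adjusted p = 5.30e-09) and its log2 fold change was -7.89 with NT (SE 0.27, adjusted p = 8.46e-09). Myh1 fell by 9.35 with ET-3 (SE 0.22, adjusted p = 1.71e-09) and its log2 fold change was -8.83 with NT (SE 0.22, adjusted p = 2.66e-09). Fitted log2 fold changes of the other 6 genes, which had 0 in at least 1 library of each ligand, ran from -11.20 (Myh8) to -6.24 (Myh6) with ET-3 and from -10.20 (Myh8) to -6.10 (Myh2) with NT, with limma adjusted p between 3.28e-08 and 3.58e-06. Fits against values of 0 depend on the pseudocount of 1 and are no measure of the fold, so remaining reads are used for that below. The order of the members by fitted change depends on it too. With a pseudocount of 5, the log2 fold change of Myh3 was -8.06 with ET-3 and that of Myh7 -7.14, whereas with 1 that of Myh7 was the lower (-9.45). With each ligand pair counted as 1 sample, all 8 genes were still called lower in both comparisons, at limma adjusted p of 0.0221 to 0.0236 with ET-3 and 0.0244 to 0.0252 with NT.

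Reads, obtained by dividing each value by its library's factor, gave the level that remained. The intervals that follow are exact 95% binomial (Clopper-Pearson) intervals and cover counting error only. Over both ligands together, Myh3 kept 84 reads against 10261 with DMSO, or 0.368% of the control level (0.293% to 0.456%), which is 272-fold lower (219 to 341). Myh1 kept 22 reads against 6022, or 0.164% (0.103% to 0.249%), and Myh8 kept 4 reads against 4444, or 0.0405% (0.0110% to 0.104%). Over both ligands together, the remaining share of Myh3 was thus above those of Myh1 and Myh8, with intervals that did not overlap. The intervals of Myh1 and Myh8 overlapped at their ends. With ET-3 alone, the intervals of Myh3 (0.195% to 0.425%) and Myh1 (0.0503% to 0.258%) overlapped. With NT alone, that of Myh3 began at 0.3178% and that of Myh1 ended at 0.3172%.

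All 4 reads of Myh8 came from the first NT library, and with ET-3 it was at least 1375-fold lower, set against a floor of 3 reads over the group. Myh4 had 0 reads in all 4 ligand libraries against 388 with DMSO, which makes it at least 288-fold lower against the same floor over both ligands. With ET-3, Myh7 was at least 408-fold lower and Myh2 at least 56.3-fold lower, with 0 reads each. Myh7 had 1 read with NT, at 0.0585% of control (0.00148% to 0.327%). Myh6 had 2 reads over both ligands (0.449% of control, 0.0541% to 1.64%) and Myh7b had 3 (0.397%, 0.0814% to 1.17%). The lower limits for Myh2, Myh6 and Myh7b are weak because these genes held only 182 to 340 reads with DMSO.

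**Figure D2:**
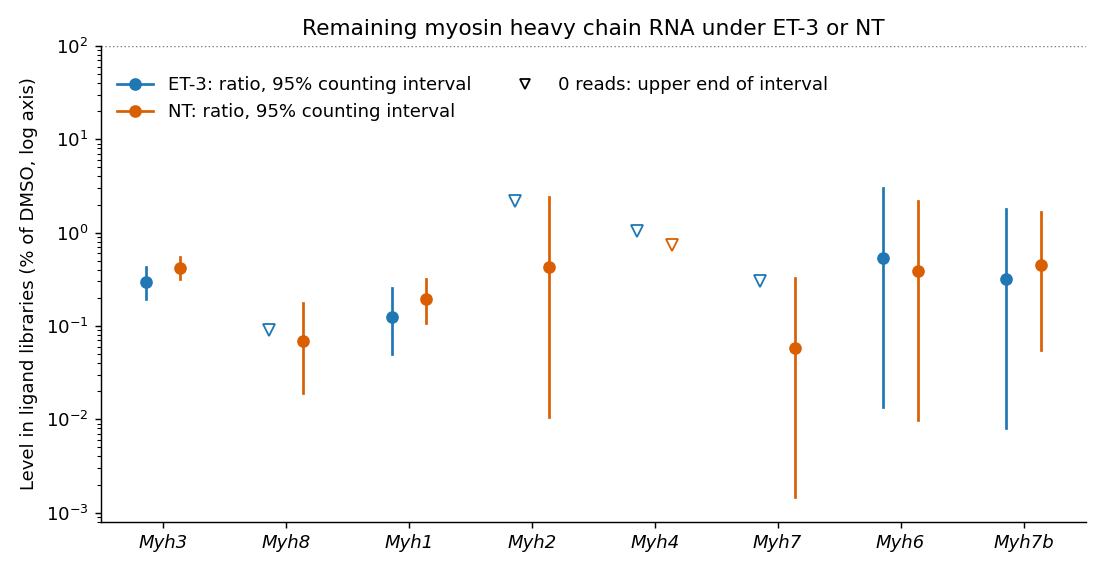
Level left with ET-3 or NT as a percent of DMSO on a log axis, with 95% counting intervals over the 2 libraries of each ligand. Open triangles give the upper end of the interval where no read was found. Every ratio lies below 1%, and the intervals are narrow for Myh3 and Myh1 and wide for the genes with few reads.

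Between the ligands, 0 of 8 members were called, against 0.079% of tested genes, in limma and also with voom weights on the recovered reads. Myh1 alone had an unadjusted p under 0.05 in limma, and with voom 0 members did. Its log2 difference was 0.51 (NT minus ET-3, SE 0.22, limma adjusted p = 0.240). Myh3 differed by 0.48 (SE 0.27, limma adjusted p = 0.353), and this difference came from the first NT library, since without it the difference was -0.038. A remaining difference between ET-3 and NT was not detectable at this depth, with 18 to 52 reads over all 8 genes per ligand library.

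The make-up of the heavy chain signal in the control cells was read per kb of exon. The summed values of the 8 genes were 11624 and 12986 with DMSO, 0.254% and 0.282% of the library, and 21, 20, 45 and 22 in the ligand libraries. With DMSO, Myh3 held 50.7% ± 0.35 (SD, n = 2) of the family per kb, Myh1 28.4% ± 0.24, Myh8 11.3% ± 0.31, Myh7 4.57% ± 0.28 and Myh4 1.93% ± 0.12. Myh7b held 1.53% ± 0.0010, Myh6 0.887% ± 0.087 and Myh2 0.760% ± 0.022. The developmental chains together held 62.0% ± 0.046, the adult fast chains 31.0% ± 0.15 and the slow and cardiac chains 6.99% ± 0.19, so embryonic and IIx chains made up most of the signal.

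The share of Myh8 depends on its length. The annotated exons of Myh8 cover 11772 bases, against 6149 in its longest transcript, and with the longest transcript of each gene Myh8 held 19.0% and Myh3 44.7%. The order of the levels was the same with both lengths, from Myh3 through Myh1, Myh8, Myh7, Myh4, Myh7b and Myh6 to Myh2. In values per kb of exon, Myh3 had 901 ± 79.7 (SD, n = 2), Myh1 504 ± 45.4, Myh8 200.4 ± 10.9, Myh7 81.0 ± 1.64, Myh4 34.2 ± 0.71 and Myh7b 27.2 ± 2.24. Myh6 at 15.8 ± 2.84 and Myh2 at 13.5 ± 1.49 overlapped between libraries, and other neighbours in this order did not.

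**Figure D3:**
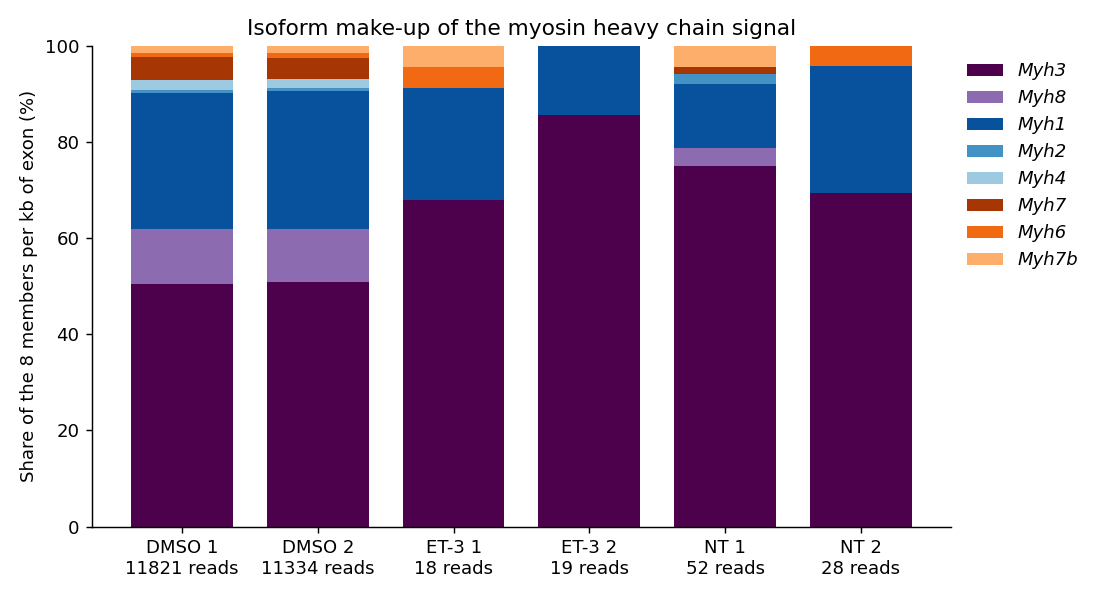
Share of each gene in the summed level of the 8 genes per kb of exon, stacked to 100% for each library, with the reads behind each bar below it. The 2 DMSO bars are alike and rest on 11821 and 11334 reads, whereas each ligand bar rests on 18 to 52 reads and is mostly Myh3.

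In the ligand libraries Myh3 held between 68.0% and 85.6% of the little that remained per kb. The log2 ratio of Myh8 to Myh3, with pseudocount 1, was -1.17 and -1.24 in the DMSO libraries, -3.91 and -4.17 in the ET-3 libraries, and -3.04 and -4.00 in the NT libraries. This ratio was lower by 2.57 in the ligand libraries, below both controls in 4 of 4 libraries. A two-sided exact permutation test gave p = 0.0667, the smallest value that 2 against 4 libraries allow, and the design cannot pass a threshold of 0.05. Where Myh8 was at 0, the ratio is set by the pseudocount and the Myh3 value. The ratio of Myh1 to Myh3 was lower by 0.96 and that of Myh8 to Myh1 by 1.61 (exact permutation p = 0.133 each), and adjusted over the 3 ratios all p were 0.133.

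Sequence sharing limits how well single members can be told apart. The reads were 75 bases long, and the authors left out reads that aligned to several places or overlapped several genes. Of all windows of 75 bases in its exons, 15.4% in Myh1, 13.9% in Myh2, 13.7% in Myh6, 10.6% in Myh7, 9.37% in Myh4 and 5.85% in Myh8 also occurred in another member, against 0.581% in Myh3 and 0% in Myh7b. Counting windows shared with any gene on the same strand, the share was 15.8% in Myh1, 9.68% in Myh4, 7.04% in Myh8 and 1.84% in Myh3. The levels of Myh1, Myh2 and Myh6 are therefore the most exposed to reads that were dropped, and the low values of Myh2 and Myh6 are uncertain to that extent.

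Genes on the opposite strand overlap some members. The labels name a library kit that does not mark strand, whereas the methods of the paper name a stranded kit. Reads of a gene and of its antisense partner may therefore not be told apart, and reads over both may have been left out. Myhas, a noncoding RNA that begins near Myh4 and runs against Myh1, covered 8.11% of the Myh1 exons and had values of 71 and 93 in the DMSO libraries, 0 and 1 under ET-3 and 0 and 0 under NT. The antisense gene 9430073C21Rik, over 3.32% of the Myh2 exons, had 31 and 41 in the DMSO libraries, 0 and 0 under ET-3 and 1 and 0 under NT. Between Myh3 and Myh2, the noncoding 2310065F04Rik had 42 and 34 with DMSO and was at 0 in all ligand libraries. These 3 noncoding genes were called lower with each ligand.

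Over Myh7, the antisense RNA Mhrt had values of 5 and 7 with DMSO, Gm29015 3 and 3, and Gm31251 9 and 15, and all 3 were at 0 in the ligand libraries. They were below the filter and were not tested. Trpc4ap, an adaptor of a ubiquitin ligase whose end overlaps Myh7b, had 782 and 781 in the DMSO libraries, 745 and 742 under ET-3 and 708 and 696 under NT, and was not called.

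Genes that flank the members, chosen for their position after values were seen, differed among themselves in direction and size. Sco1, a copper chaperone of the respiratory chain just upstream of Myh3, had values of 366 and 386 in the DMSO libraries, 201 and 187 under ET-3 and 215 and 223 under NT. Its log2 fold changes of -0.95 and -0.78 did not reach the 2-fold threshold. Adprm, next to it, had 125 and 121, 95 and 90, and 94 and 111, and was not called. Tmem220 had 46 and 46, 2 and 8, and 3 and 9, and was called lower with each ligand (log2 fold changes -3.18 and -2.89). Downstream, beyond Myh13, Gas7, a growth arrest-specific gene, had 2 and 9 with DMSO and 49 to 63 with a ligand, and was called higher with each (log2 fold changes 3.22 and 3.45).

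On chromosome 14, the nearest genes with a row on the Myh6 side were both called lower with each ligand. Efs, an adaptor of Src kinases, had 54 and 61 with DMSO and 10 to 17 with a ligand (log2 fold changes -1.99 and -2.14), and Slc22a17 had 110 and 129 against 27 to 49 (-1.98 and -1.66). Ngdn, beyond Myh7, had 245 and 261 with DMSO and 229 to 248 with a ligand, and was not called. Gss and Edem2, the nearest tested genes on either side of Myh7b and Trpc4ap on chromosome 2, were not called. The next tested genes were called with each ligand, Acss2 lower (172 and 142 against 39 to 50) and Procr higher (3 and 6 against 40 to 49).

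**Figure D4:**
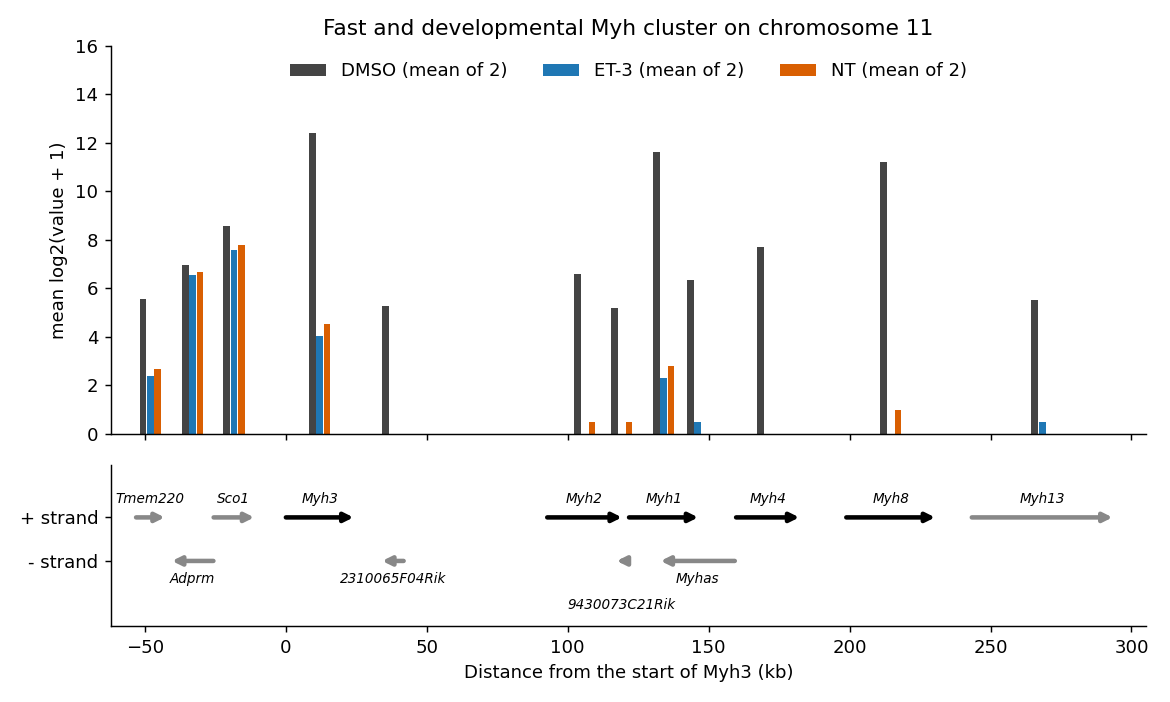
Mean log2(value + 1) of the genes in and around the chromosome 11 cluster by group, 2 libraries each, above a map of the genes drawn to scale by distance from the start of Myh3. Bars are centred on each gene, and members are drawn in black. The DMSO bars stand high over the members, and the ligand bars there are small or missing, with those of Myh3 the tallest. Ligand bars are also well below the DMSO bars at Myh13 and Tmem220, whereas the bars of Adprm and Sco1 differ by less than 1 unit between groups.

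Other class II myosins were compared because they share the motor but serve other cells. Of the 4 tested, 2 were called lower with each ligand, against a background of 14.9% with ET-3 and 13.2% with NT. Myh13, the chain of extraocular muscle at the end of the chromosome 11 cluster, had values of 51 and 39 in the DMSO libraries, 0 and 1 under ET-3 and 0 and 0 under NT. Myh14, a nonmuscle chain, had 43 and 54 in the DMSO libraries, 7 and 12 under ET-3 and 13 and 9 under NT (log2 fold changes -2.27 and -2.06).

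The nonmuscle chain Myh9, which drives cytokinesis and cell contractility, had 4061 and 4249 in the DMSO libraries, 4696 and 4436 under ET-3 and 3833 and 3730 under NT. Its log2 fold changes were 0.14 with ET-3 and -0.14 with NT, and it was not called. Myh10, a second widely expressed nonmuscle chain, had 1038 and 1012, 1075 and 1115, and 1140 and 1090, and was not called. Myh11, the smooth muscle chain, was at 4 or below in every library and was not tested, and Myh15 was not analysed here.

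Myosin light chains bind the neck of each heavy chain, and kinases phosphorylate the regulatory ones. Of 11 tested genes of this list, 8 were called lower and 1 higher with each ligand. Over all tested genes, 14.9% were called lower with ET-3 and 13.2% with NT, and 6.62% and 7.3% higher. The list had a median log2 fold change of -3.65 with ET-3 and -3.32 with NT. Myl1, the essential light chain of fast fibres, had values of 835 and 927 with DMSO and 2 or 3 in the ligand libraries. Myl4, the essential chain of embryonic muscle and atria, had 998 and 1029 against 4 to 13, and the kinase Mylk4 had 1635 and 1688 against 42 to 92. The gene with the smallest change, Myl6, a light chain of nonmuscle and smooth muscle myosin, had 622 and 663 with DMSO and 376 to 438 with a ligand, and was not called. Mylk2, the skeletal muscle light chain kinase, was the gene called higher, with 46 and 45 against 133 to 163, and is named after its values were seen.

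Folding and assembly of thick filaments need chaperones, titin and proteins of the M-band. Of 18 tested genes of this list, 14 were called lower with each ligand, against 14.9% of tested genes with ET-3 and 13.2% with NT. In the other direction 0 were called higher, against 6.62% and 7.3%. The median was -4.13 with ET-3 and -4.04 with NT (-3.70 and -3.86 with genes at 0 set to the same floor). Mybph, a myosin-binding protein, had 1198 and 1344 with DMSO against 0 to 5 with a ligand, and Trim63, the ubiquitin ligase MuRF1, had 256 and 260 against 0 in all ligand libraries. Unc45a, the general myosin chaperone, had 410 and 456 with DMSO and 427 to 475 with a ligand, and was not called. Its muscle counterpart Unc45b, named after its values were seen, had 1228 and 1296 with DMSO against 2 to 7.

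Genes of slow and fast fibres other than myosin heavy chains were also read. Of 9 tested slow fibre genes, 7 were called lower with each ligand and 0 higher (medians -4.65 and -4.88). The background was 14.9% of tested genes lower with ET-3 and 13.2% with NT, and 6.62% and 7.3% higher. Casq2, the calsequestrin of heart and slow muscle, had 1297 and 1409 with DMSO against 1 to 4, Myoz2 of the Z-disc had 274 and 286 against 0 to 2, and Csrp3 had 339 and 348 against 0 or 1. Atp2a2, the calcium pump SERCA2, had 2390 and 2590 against 1923 to 2309, and was not called.

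Of 9 tested fast fibre genes, 8 were called lower with each ligand and 0 higher (medians -3.23 and -3.24). Shares over all tested genes were 14.9% lower with ET-3 and 13.2% with NT, and 6.62% and 7.3% higher. Casq1, the fast calsequestrin, had 614 and 613 with DMSO against 0 to 3, and Tnnc2, fast troponin C, had 489 and 535 against 0 to 2. Atp2a1, the calcium pump SERCA1, had 2204 and 2502 against 49 to 89. Tpm1, a tropomyosin made in many cell types, had 1683 and 1852 against 1421 to 1687, and was not called. Genes of fast fibres and genes of slow fibres were thus both mostly lower with a ligand, with 1 fast and 2 slow genes not called.

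Transcription factors and signals that select heavy chain isoforms were more divided. Of 25 tested, 12 were called lower with ET-3 and 0 higher, and 12 lower and 1 higher with NT, with medians of -0.90 and -0.93. Among all tested genes, 14.9% were called lower with ET-3 and 13.2% with NT, and 6.62% and 7.3% higher. Myog, the factor of terminal differentiation, had values of 1157 and 1335 with DMSO and 28 to 38 with a ligand. Mef2c, which acts with it on sarcomere genes, had 1927 and 1930 against 8 to 12, and Mstn, the growth inhibitor myostatin, had 479 and 451 against 0 or 1. Myf6, the factor MRF4, had 143 and 121 against 8 to 15, and was called lower with each ligand.

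Myod1, the determination factor of myoblasts, had 1324 and 1444 in the DMSO libraries, 1539 and 1449 under ET-3 and 1192 and 1100 under NT, and its log2 fold changes of 0.11 and -0.27 did not reach 2-fold. Eya1, a transcriptional coactivator, had 174 and 129, 220 and 251, and 239 and 234, and was not called. Nfix, a switch from embryonic to fetal myosin programmes, had 931 and 1056 against 1023 to 1072, and was not called. Myod1, Eya1 and Nfix thus moved by less than 2-fold, while Myog, Mef2c and Myf6 were called lower with each ligand. No gene of these 6 lists was called between NT and ET-3, where only 0.079% of all tested genes were called.

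**Figure D5:**
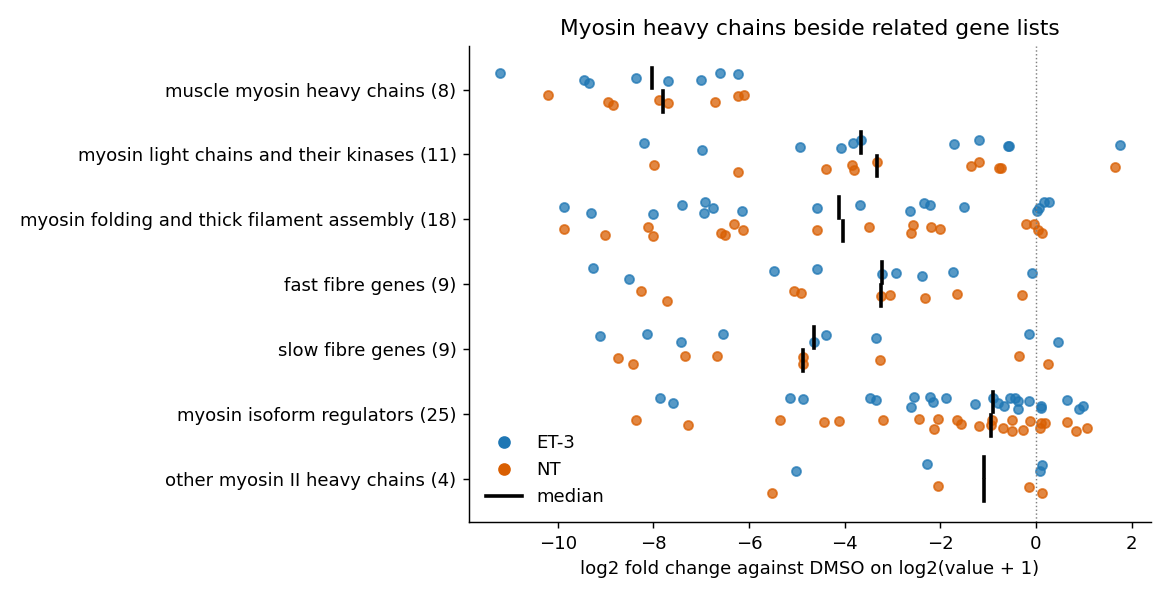
Log2 fold change against DMSO of every tested gene in the member family and in 6 related lists, with the number tested in brackets, ET-3 above and NT below in each row. Black bars mark medians, which lie near -8 for the heavy chains, from about -3 to -5 for light chains, assembly and fibre genes, and near -1 for isoform regulators and other class II myosins.

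Likeness to Myh3, the member with the highest level per kb, was measured as the root mean square difference of log2(value + 1) over the 6 libraries, with each gene centred on its DMSO mean. The 5 genes most like it were Gja5 (0.18), Myl1 (0.23), Tnnc2 (0.28), Gm14635 (0.37) and Srpk3 (0.37). All 5 were at 3 or below in every ligand library, so this ranking depends on the pseudocount of 1 and on their DMSO levels. Gja5, which encodes the gap junction protein connexin 40, had values of 626 and 658 with DMSO and 1 or 2 with a ligand. Srpk3, a protein kinase of striated muscle, had 606 and 651 against 0 to 3, and Gm14635 had 261 and 306 against 0 in all ligand libraries.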

How the data were processed

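RNA of 6 libraries was sequenced as single-end reads of 75 bases. According to the submitters' processing notes, tools included Trimmomatic 0.38, STAR 2.7.7a, featureCounts 1.6.5 and DESeq2 1.30.0 with build mm10, whereas the paper's methods name another trimmer and other versions. The deposited table holds a whole-number signal per gene and library, which the authors obtained by multiplying read counts by 1 factor per library. The factors, estimated here from the values, ran from 0.781 to 1.19. Count models planned for raw counts were therefore not used.

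Samples were grouped by their labels. Log2(value + 1) of genes whose values averaged 5 or more (13921 kept, 5022 removed) was fitted with limma 3.58.1 in R 4.3.3 (trend, all 6 libraries), with Benjamini-Hochberg adjustment over the tested genes and thresholds of 0.05 and 2-fold. The fit was tested on simulated data. GENCODE M21 gave positions and exonic lengths, and 18920 of 18943 genes matched by identifier. Promoter windows and miRNAs are from RefSeq (GRCm38.p6).

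The named genes are all members, the 3 genes of each list with the largest change under ET-3 among those called alike with both ligands, the gene with the smallest change, all other class II myosins, known regulators, genes inside or between members, and the 5 genes most like Myh3. Some of the genes that this rule names are not reported here. Members and lists were chosen with earlier results of these data known. Alternatives covered the filter, the scaling, the pseudocount, voom, the replicate block, the samples fitted, the gene length and each library left out. Log2 fold changes had a median standard error of 0.10 over the tested genes. Python 3.11.15 with numpy 2.4.6, pandas 2.3.3, scipy 1.17.1 and matplotlib 3.10.9 was used.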

Additional observations from a re-analysis of the deposited data

How the results depend on the processing

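All 8 members were called lower with ET-3 and with NT under every alternative that was run, including each library left out, and 0 were called between NT and ET-3. Numbers shared across groups did not pair the libraries (correlations of deviations -0.008, -0.070 and -0.022), and with the replicate block 8, 8 and 0 members were called. Scaling to library totals moved the median log2 fold change of all genes from -0.01 to 0.08 with ET-3 and from -0.01 to 0.10 with NT, and no count of members or list genes called lower changed by over 1.5 times. Between NT and ET-3, the difference of Myh3 ran from -0.038 to 1.01 and that of Myh7b from -0.50 to 1.08 with single libraries left out, and Myh7b was at -0.11 with voom. None of these passed the test. With the longest transcript as length, the shares with DMSO moved to 44.7% (Myh3), 26.0% (Myh1), 19.0% (Myh8), 5.55% (Myh7), 1.70% (Myh4), 1.45% (Myh7b) and 0.783% (Myh2), since the exonic length of Myh8 exceeds its longest transcript most. Depth limits the ligand libraries, where 18 to 52 reads fell on the 8 genes.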
